A study of Mus musculus with 6 samples.

Results

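The genes described here were 9 mouse genes of sensory neuron development and survival, Neurog1, Neurog2, Neurod1, Neurod4, Pou4f1, Isl2, Ntrk2, Ntrk3 and Ret, out of 21755 protein-coding genes. They were taken by name for their known roles, with earlier results of these data known. The rule that finds their peaks adds no signal level to the cut by which the authors called peaks. All samples were wild-type whisker pads of strain B6/J2 at embryonic day 12, dissociated to single cells and profiled by CUT&Tag. In this assay an antibody directs a transposase to a chromatin mark and the released fragments are sequenced. Of the 6 samples, 3 were made with an antibody against H3K4me1, the single methylation of lysine 4 on histone H3 that is found at enhancers and around promoters, and 3 with control IgG. Peak lists of the 3 H3K4me1 samples, numbered 1, 2 and 3 as the pads are in their titles, were analysed. No IgG list was used here, and so no value can be set beside a control background. The labels do not say whether the pads came from separate embryos.

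Whisker pads are innervated by the infraorbital branch of the trigeminal nerve. The axons enter the pad, while the cell bodies and nuclei of these neurons lie in the trigeminal ganglion. Neurog1 and Neurog2 are proneural basic helix-loop-helix factors that commit precursors to the sensory neuron fate, and Neurod1 and Neurod4 are related factors that act later in neuronal differentiation. Pou4f1, also known as Brn3a, and Isl2 are homeodomain factors of differentiating sensory neurons. Ntrk2 encodes TrkB, the receptor for BDNF and neurotrophin 4, Ntrk3 encodes TrkC, the receptor for neurotrophin 3, and Ret encodes the signalling receptor of the GDNF family. The comparison asks at which of these genes the pad carried H3K4me1 peaks and at which it did not.

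A peak was assigned to a gene when it overlapped the gene body or the 5 kb on either side, or when it lay up to 100 kb away and the nearest protein-coding start site was that of the gene. Of the 9 genes, 4 had an assigned peak in at least 1 replicate and 3 had one in all 3 replicates. Over all protein-coding genes the shares were 33.6% and 19.0%. Without replicate 3, 4 had one in both remaining replicates, against 24.7% of all genes. Neurog1, Isl2 and Ntrk2 had an assigned peak in each replicate, and Neurog2 in replicates 1 and 2. Neurod1, Neurod4, Pou4f1, Ntrk3 and Ret had 0 assigned peaks in every replicate. The 14 assigned peaks (6, 5 and 3 in the order of the replicates) formed 6 regions when peaks that shared at least 1 bp were merged. Of these regions 3 held a peak in all 3 replicates, 2 in replicates 1 and 2, and 1 in replicate 1. Among all 19251 merged regions of the lists, 8916 held a peak in all 3 replicates. The peaks come from a whole tissue, so a mark in few cells and a weak mark in many cells cannot be told apart.

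**Figure D1:**
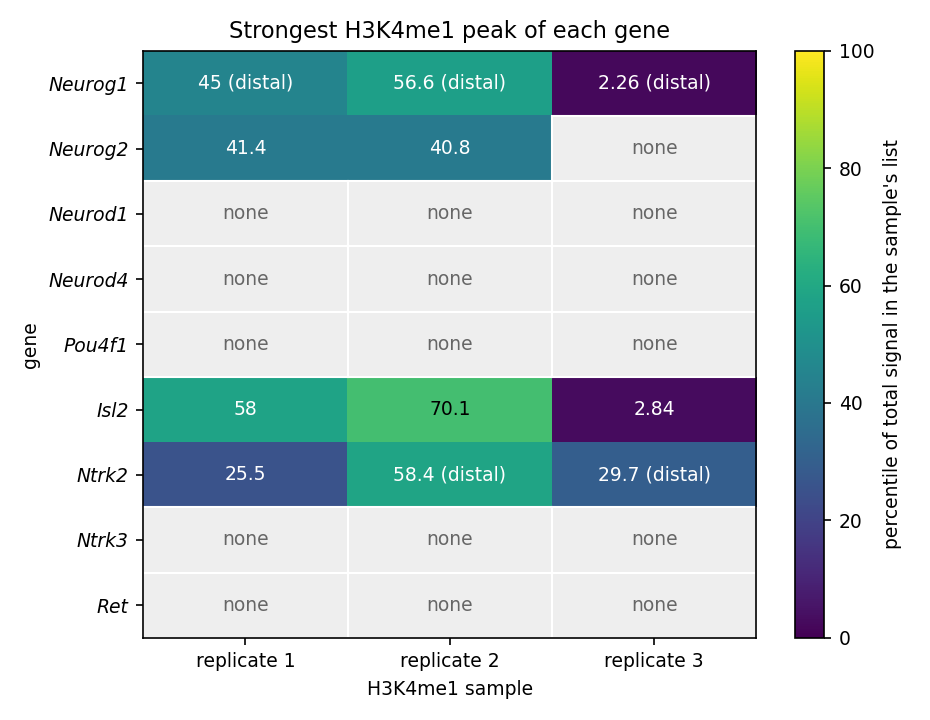
Percentile of total signal, within the list of each H3K4me1 replicate (columns), of the strongest peak assigned to each gene (rows), with "distal" for peaks outside the gene body and its 5 kb flanks and grey for no assigned peak. The 5 genes without a peak are grey in every column, and the highest value is 70.1 for Isl2 in replicate 2.

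At the gene itself, meaning the body with 5 kb on either side, 3 of the 9 genes had a peak in replicate 1, the same number in replicate 2 and 1 in replicate 3, against 24.9, 22.6 and 19.6% of all protein-coding genes. Isl2 was the gene with a peak there in all 3 replicates (1 of 9, against 15.5% of all genes). Isl2, Neurog2 and Ntrk2 had one in at least 1 replicate (3 of 9, against 28.8%). The share of genes with a peak rose with gene length, from 18.0% of genes under 10 kb to 71.4% of genes over 200 kb in at least 1 replicate. Of the 5 members under 10 kb, 2 had a peak at the gene in at least 1 replicate and 1 in all 3, where 7.10% of genes had one in all 3. Neurod4 and Ret, the 2 members of 10 to 50 kb, had none, where 25.5% of genes did in at least 1 replicate and 12.2% in all 3. No member measured 50 to 200 kb, a class with shares of 46.2 and 29.5%. Of the 2 members over 200 kb, Ntrk2 had a peak at the gene in replicates 1 and 2 and Ntrk3 had none, where 54.2% of genes had one in all 3. Of 333 other genes within 20% of the length of Ntrk2, 71.2% had a peak in at least 1 replicate. With so few members in a class, these counts are read beside the shares and no difference is drawn from them.

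**Figure D2:**
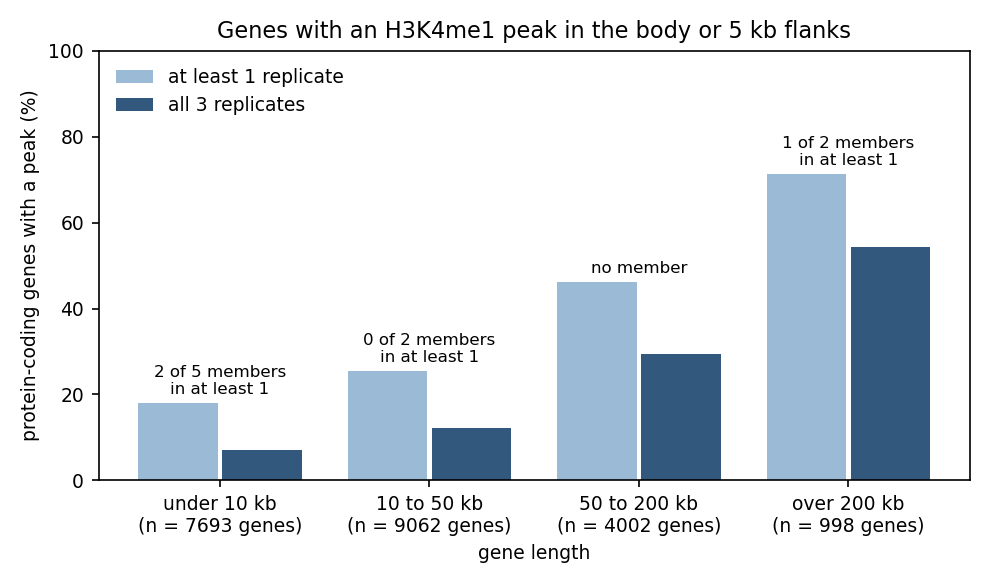
Share of protein-coding genes (%, y axis) with a peak in the gene body or its 5 kb flanks, by gene length (x axis), in at least 1 replicate (light bars) and in all 3 (dark bars), with the members' count above each class. The light bars climb from 18.0% to 71.4%, and the members are 2 of 5, 0 of 2 and 1 of 2 in the classes that hold any.

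Before the single genes, the replicates are described. The lists held 16788, 12969 and 13998 peaks, with lowest total signals of 14265, 24247 and 19337. Total signal is the fragment pileup summed over the bases of a peak and was not scaled to depth, so peaks were compared between replicates by percentile within a list or as a multiple of the weakest peak. The source name of replicates 2 and 3 is adult kidney, against whisker pad in their titles. Among marker genes with a peak at the gene were, by replicate, 16, 15 and 15 of 16 for pad mesenchyme. Of 10 surface ectoderm genes 7, 7 and 5 had one, and of 14 adult kidney genes 4, 4 and 2, against 24.9, 22.6 and 19.6% of all protein-coding genes. Slc12a1 and Cubn had a peak in all 3 lists and Aqp2 and Pax8 in replicates 1 and 2, with Umod, Slc34a1 and Slc12a3 among the 10 at 0 in each list. At Slc12a1, Cubn and Pax8 the nearest start site of the strongest peak was that of another gene. Of 7 genes of nerve glia, whose nuclei do lie along the axons, 2, 2 and 0 carried a peak, against the same shares of all genes (24.9, 22.6 and 19.6%). They were Sox10 and Erbb3, while Foxd3, Fabp7 and Cdh19 were among the 5 with none. The strongest Sox10 peak of replicate 1 had its nearest start site at Polr2f. With so few glial genes, nothing is drawn from their count. Replicate 3 stood apart by GC content. Of the regions shared by replicates 1 and 2, the share also found in replicate 3 fell from 99.2% in the lowest of 10 GC groups (33.8 to 42.6%) to 44.2% in the highest (53.0 to 61.9%), so counts over all 3 replicates and means that include replicate 3 are also given without it.

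Neurog1 (ENSMUSG00000048904, chr13:56250478-56252163 in GRCm38, minus strand, 1.69 kb) had no peak at the gene in any replicate and 1 distal region in all 3. The region chr13:56220631-56224914 lay downstream, from 27.2 to 31.5 kb past the start site, between Tifab and Neurog1, and overlapped the long noncoding RNA gene 4930550C17Rik. In replicate 1 the peak was 1802 bp long with a total signal of 25362, at percentile 45.0. In replicate 2 it was 4284 bp long with 50911, at percentile 56.6. In replicate 3 it was 2448 bp long with 19746, at percentile 2.26. By total signal the peak was thus in the middle of 2 lists and, at 1.02 times the weakest peak, close to the lower edge of that of replicate 3. By highest pileup it stood at percentile 68.6, 56.0 and 49.5 in replicates 1, 2 and 3. The mean percentile by total signal was 34.6 ± 28.6 (SD, n = 3), and 50.8 ± 8.20 (SD, n = 2) without replicate 3.

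The place of the highest pileup recurred closely. Its middle lay within 38 bp in the 3 replicates, 30.1 kb downstream of the start site. Over the 8916 regions found in all replicates the median spread was 530 bp. The highest pileup was 48, 51 and 38 fragments. The 300 bases centred on this place, chr13:56221885-56222184, plus strand, of GRCm38.p6 from RefSeq, are shown because they hold the summits of all replicates:

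Neurog1 downstream region: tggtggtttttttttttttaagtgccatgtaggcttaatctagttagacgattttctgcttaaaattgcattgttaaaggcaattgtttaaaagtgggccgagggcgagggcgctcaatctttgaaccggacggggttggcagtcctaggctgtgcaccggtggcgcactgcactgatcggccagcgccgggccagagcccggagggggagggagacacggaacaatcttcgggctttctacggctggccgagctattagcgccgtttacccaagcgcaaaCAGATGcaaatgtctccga

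Capitals mark matches to any of 3 motifs, searched on both strands. The motifs were the E-box CAGATG, a form that proneural factors are known to bind, the palindromic E-box written CAGCTG, and the homeodomain core written TAATTA, none of which overlap. The window held 1 match, to the proneural E-box. Of 8912 windows of this length at regions in all replicates, 27.7% held the proneural E-box, 24.0% the palindromic E-box and 4.61% the homeodomain core, so the match is a description and marks no site. The nearest start site decided that this region belonged to Neurog1. A further 7 peaks within 100 kb of the gene in each replicate lay nearer to the start sites of Tifab or Cxcl14.

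**Figure D3:**
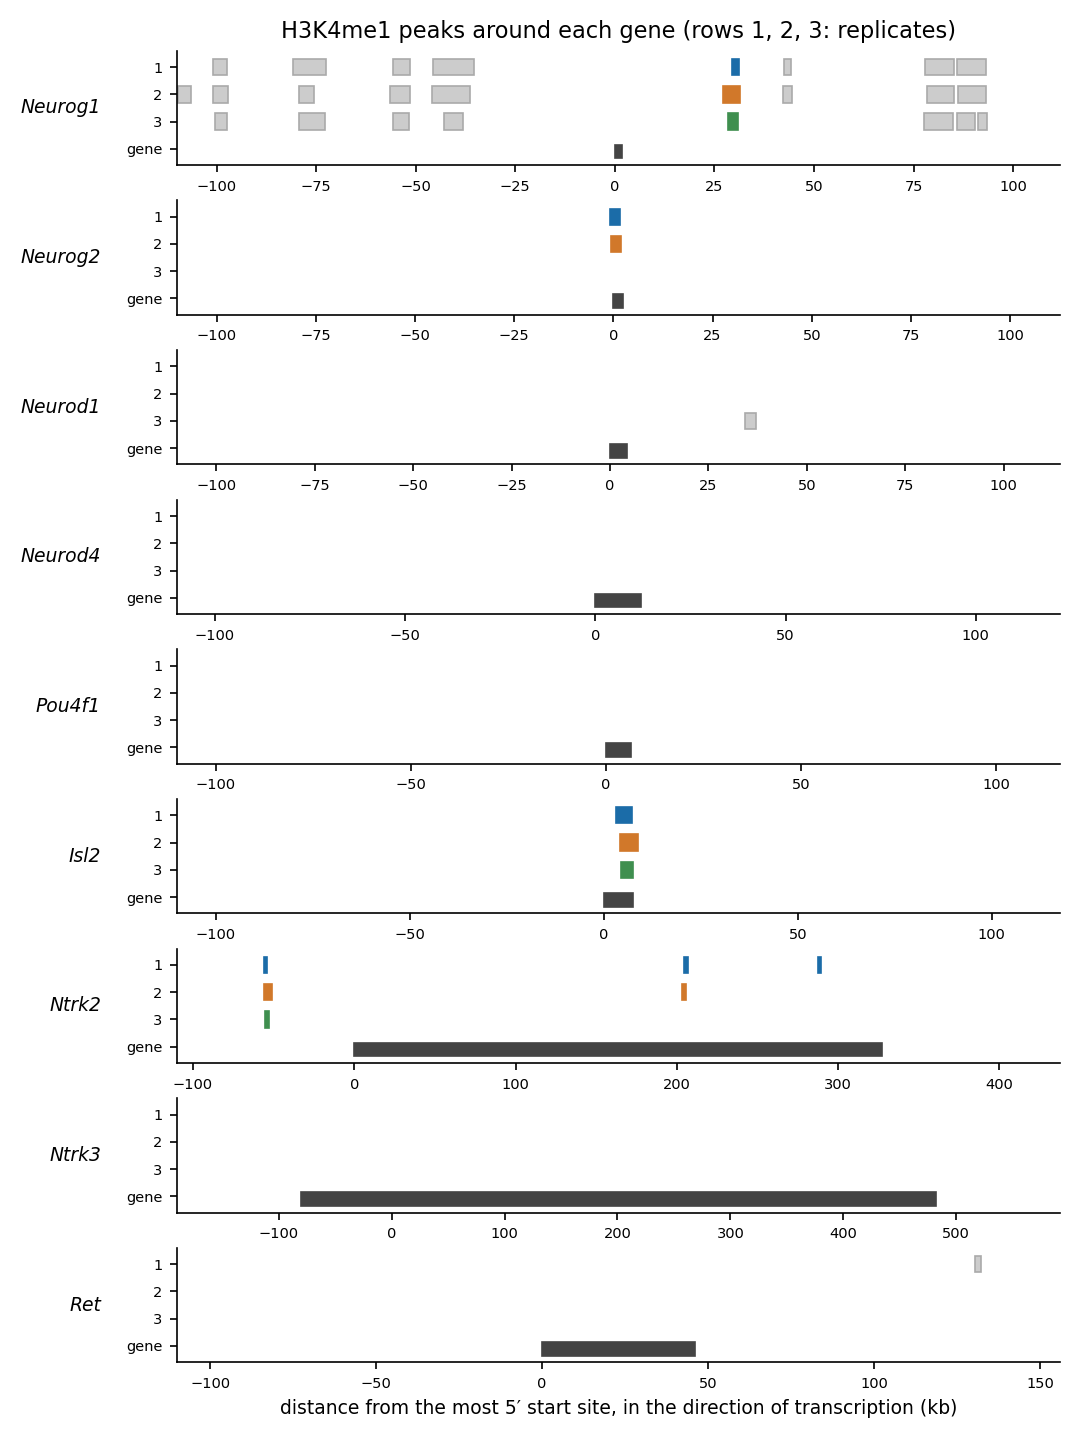
Peaks within about 100 kb of each gene, by distance from its most 5′ protein-coding start site in the direction of transcription (kb, x axis), with 1 row per replicate and the gene body as a dark bar, coloured when assigned to the gene and grey when nearest to the start site of another gene. Neurog1 has its 3 assigned peaks 30.1 kb downstream among grey peaks, Isl2 has peaks inside the gene in all 3 rows, and Neurod4, Pou4f1 and Ntrk3 have empty rows.

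Neurog2 (ENSMUSG00000027967, chr3:127633135-127635631, plus strand, 2497 bp) was the gene whose start site itself lay under a peak. The region chr3:127632203-127635073 ran from -0.932 to 1.94 kb relative to the start site. In replicate 1 the peak had a total signal of 23837, at percentile 41.4, and covered 70.6% of the gene body. In replicate 2 it had 38714, at percentile 40.8, and covered 77.7%. These values were 1.67 and 1.60 times the weakest peak of their lists. By total signal the peak stood at nearly the same rank in both pads (mean percentile 41.1 ± 0.412, SD, n = 2). By highest pileup it stood at percentile 31.8 and 65.5 in replicates 1 and 2, and by total signal divided by length at 37.5 and 67.1. The highest pileup, 29 and 58 fragments, lay 86 and 248 bp after the start site, in annotated UTR.

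Replicate 3 had no peak at Neurog2, and its nearest peak lay 384 kb away, near Ank2. The Neurog2 region had a GC content of 61.7%, in the highest GC group, where 44.2% of regions shared by replicates 1 and 2 were also found in replicate 3. The part of GC content in the missing peak was not tested. The bases before the start site, chr3:127632886-127633134, plus strand, from the RefSeq promoter table of GRCm38.p6, are shown because the peaks of replicates 1 and 2 span them:

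Neurog2 promoter: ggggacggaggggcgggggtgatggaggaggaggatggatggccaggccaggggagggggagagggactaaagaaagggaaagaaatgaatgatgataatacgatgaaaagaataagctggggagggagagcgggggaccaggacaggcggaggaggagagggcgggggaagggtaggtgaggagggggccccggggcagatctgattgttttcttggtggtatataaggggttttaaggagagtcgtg

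The stretch had a GC content of 58.2% and held none of the 3 motifs. Of 26787 RefSeq promoters, 14.4% held the proneural E-box, 12.8% the palindromic E-box and 4.85% the homeodomain core in the 250 bases before the start. It was chosen for printing after its peaks were seen. Promoters of 7 of the 9 members were in the table, and those of Ntrk3 and Ret were not used here.

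Neurod1 (chr2:79452521-79456751, minus strand, 4.23 kb), the bHLH factor that follows the neurogenins, had no peak at the gene or assigned from a distance. The nearest peaks lay 195 and 194 kb away in replicates 1 and 2, over the start site of Itga4. In replicate 3 a peak at percentile 2.94 lay 29.9 kb away, and its nearest start site was that of Cerkl. The stretch around Neurod1 that was free of peaks in all 3 replicates measured 290 kb. Neurod4 (chr10:130268152-130280240, minus strand, 12.1 kb), another late bHLH factor, lay 314 kb from the nearest peak in each replicate, in a stretch of 1670 kb that was free of peaks and held 69 protein-coding genes. That peak stood at percentile 99.3, 78.2 and 92.1 in replicates 1, 2 and 3. It was 583, 757 and 555 bp long, short beside median lengths of 2981, 3682 and 3352 bp in the lists. Its nearest start site, that of Vmn2r87, a vomeronasal receptor gene, was 97022, 96843 and 97040 bp away. What gave so short a peak its high rank was not tested.

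Pou4f1 (chr14:104461676-104467999, minus strand, 6.32 kb), whose product marks nearly all trigeminal sensory neurons, likewise had no peak. The nearest lay 909 kb away in replicates 1 and 2 and 229 kb away in replicate 3, at percentiles 27.4, 2.38 and 11.3. The stretch free of peaks in all replicates measured 1706 kb and held 9 protein-coding genes. Stretches of this length were not rare. Of the 15499 genes without a peak at the gene in any replicate, 24.7% lay in a stretch as long or longer, 25.4% for Neurod4 and 70.5% for Neurod1.

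Isl2 (ENSMUSG00000032318, chr9:55538672-55546180, plus strand, 7.51 kb) had the member peak of highest percentile by total signal in replicates 1 and 2. In replicate 3 the upstream peak of Ntrk2 ranked higher. The region chr9:55541871-55547453 covered the 3′ part of the gene and ended beyond it. In replicate 1 the peak had a total signal of 32363 and a highest pileup of 53, at percentile 58.0. In replicate 2 it had 69413 and 57, at percentile 70.1. In replicate 3 it had 19858 and 17, at percentile 2.84 by total signal and 0.632 by highest pileup. The peaks were 2.27, 2.86 and 1.03 times the weakest of their lists, with a mean percentile of 43.6 ± 35.8 (SD, n = 3), and 64.0 ± 8.56 (SD, n = 2) without replicate 3. The peaks of replicates 1 and 2 lay above the middle of their lists, and that of replicate 3 was among the weakest of its list. This region too had a high GC content, 57.0%, in the highest group, where percentiles in replicate 3 minus those in replicate 2 had a median of -22.4 points. The part of GC content was not tested.

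The peaks covered 53.1, 45.0 and 42.3% of the Isl2 body. The highest pileup lay 6.34 and 6.41 kb past the most 5′ start site in replicates 1 and 2, in the same coding exon, and 7.40 kb past it in replicate 3, in the 3′ UTR. Its spread of 1066 bp was above the median of 530 bp. Isl2 has 2 annotated start sites. The peak of replicate 1 came within 723 bp of the downstream site, and those of replicates 2 and 3 stayed 1653 and 1854 bp away. With Neurog2 it made 2 of 9 members with a peak within 1 kb of a start site in at least 1 replicate, against 15.9% of all genes, and 0 of 9 in all 3 replicates, against 6.15%. Without replicate 3, Neurog2 had one in both remaining replicates (1 of 9, against 10.1%). The window of 300 bases at the median place of the highest pileup, chr9:55544935-55545234, plus strand, is shown because the Isl2 summit lies in coding sequence, unlike the others:

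Isl2 exonic region: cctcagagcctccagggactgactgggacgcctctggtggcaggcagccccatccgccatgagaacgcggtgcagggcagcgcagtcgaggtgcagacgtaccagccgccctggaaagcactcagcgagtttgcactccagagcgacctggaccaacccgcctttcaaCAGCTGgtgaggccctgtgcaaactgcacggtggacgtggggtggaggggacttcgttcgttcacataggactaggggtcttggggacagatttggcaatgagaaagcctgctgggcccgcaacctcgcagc

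It holds part of a coding exon. Its GC content was 63.0%, and it held 1 match, to the palindromic E-box. By the percent of the gene and its flanks covered by peaks in the 3 replicates (22.8, 26.6 and 18.6% for Isl2), the most similar of 2139 protein-coding genes of similar length were Ckap4 and Nthl1, at distances of 2.35 and 3.11 percentage points over the 3 values.

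Ntrk2 (ENSMUSG00000055254, chr13:58806569-59133970, plus strand, 327 kb) was the receptor gene with peaks, and had 3 regions. The region found in all 3 replicates, chr13:58750899-58755339, lay upstream, from -55.7 to -51.2 kb relative to the most 5′ start site, and overlapped the long noncoding RNA gene 4930455J16Rik. Its peaks had total signals of 15607, 52783 and 26240 in replicates 1, 2 and 3, at percentiles 8.75, 58.4 and 29.7 (mean 32.3 ± 24.9, SD, n = 3, and 33.6 ± 35.1, SD, n = 2, without replicate 3). They were 1.09, 2.18 and 1.36 times the weakest peak. Here replicate 1, not replicate 3, held the weakest peak, and the GC content of the region, 46.7%, fell in a group where replicates 2 and 3 differed by a median of 2.80 percentile points.

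The highest pileup of 26, 35 and 30 fragments lay at nearly the same place, with a spread of 45 bp between replicates. In replicate 2 the highest value ran over 359 bp. The 300 bases centred on it, chr13:58751973-58752272, plus strand, are shown as the recurrent summit of the receptor gene:

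Ntrk2 upstream region: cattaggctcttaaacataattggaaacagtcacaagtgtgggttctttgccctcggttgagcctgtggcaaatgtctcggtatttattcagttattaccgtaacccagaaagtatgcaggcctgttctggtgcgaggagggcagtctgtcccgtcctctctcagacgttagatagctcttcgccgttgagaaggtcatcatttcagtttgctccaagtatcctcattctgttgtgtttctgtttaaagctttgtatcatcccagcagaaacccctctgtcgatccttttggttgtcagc

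The window had a GC content of 46.3% and held none of the 3 motifs. The nearest other protein-coding gene, Slc28a3, was 140 kb away.

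Both other Ntrk2 regions were intronic. The region chr13:59010067-59013338 had a peak in replicates 1 and 2, with total signals of 18933 and 27028 at percentiles 25.5 and 11.2, and highest pileups 90 bp apart. It lay 203 to 207 kb past the most 5′ start site. The region chr13:59094337-59095877, 288 to 289 kb past it, had a peak in replicate 1 alone, with a total signal of 14917 at percentile 4.64, or 1.05 times the weakest peak. Ntrk2 is known to make a full-length receptor with a kinase domain and shorter forms without it. Of its 7 annotated protein-coding transcripts, 5 ended before both regions, and the 2 others spanned them. The peaks of the first region began 74.0 and 73.0 kb past the farthest end among these 5. The peak of the second region began 157 kb past it. Replicate 3 had no peak within Ntrk2, at GC contents of 48.0 and 50.9% for these regions, in groups where 85.2 and 71.1% of regions shared by replicates 1 and 2 were also in replicate 3. The annotated start sites of Ntrk2 carried no peak within 1 kb in any replicate. Peaks covered 1.14, 0.703 and 0% of the gene and its flanks.

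**Figure D4:**
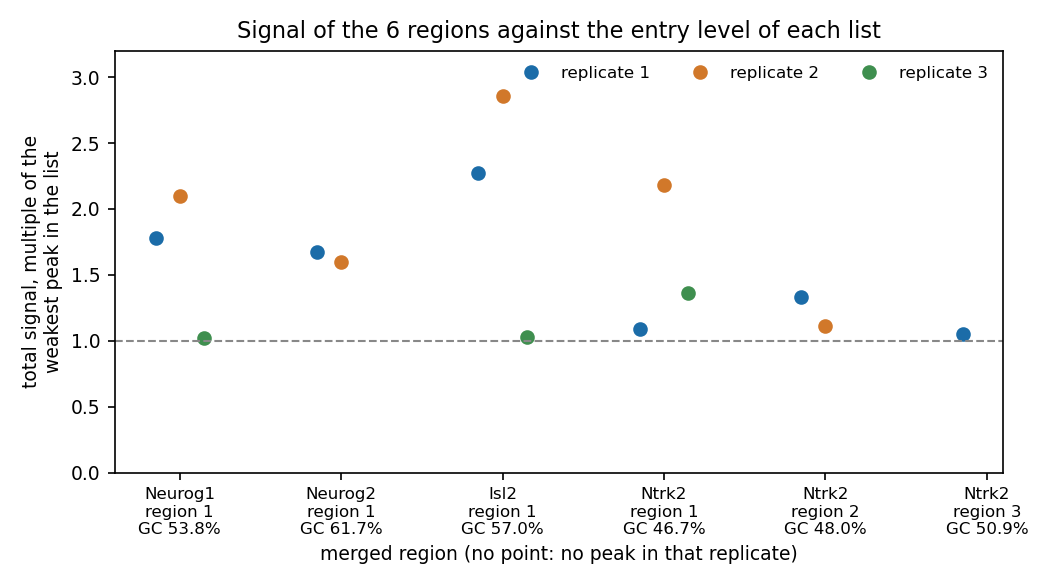
Total signal of each assigned peak as a multiple of the weakest peak in the list of its replicate (y axis, dashed line at 1) for the 6 merged regions (x axis, with GC content), 1 colour per replicate. Points range from 1.02 to 2.86, and the points of replicate 3 for Neurog1 and Isl2 lie close to the line.

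Ntrk3 (ENSMUSG00000059146, chr7:78175959-78738012, minus strand, 562 kb), the longest of the 9 genes, had no peak in any replicate. Of the 151 other protein-coding genes within 20% of its length, 72.8% had a peak at the gene in at least 1 replicate. The nearest peaks lay 143, 143 and 215 kb from the gene in replicates 1, 2 and 3, at percentiles 34.4, 28.0 and 1.31. The gene stood in a stretch of 3.02 Mb that was free of peaks in all replicates and held 5 protein-coding genes, and 15.6% of genes without a peak lay in a stretch as long or longer.

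Ret (ENSMUSG00000030110, chr6:118151745-118197718, minus strand, 46.0 kb) also had no peak. Of 1922 other genes of similar length, 30.2% had one in at least 1 replicate. In replicate 1 a peak at percentile 1.49 lay 84.4 kb away, over the start site of Rasgef1a, and was assigned to that gene. The nearest peaks in replicates 2 and 3 were 472 and 232 kb away. The stretch free of peaks in all replicates measured 759 kb, and 42.6% of genes without a peak lay in one as long or longer. Ret is also known from the ureteric bud of the developing kidney. Replicates 2 and 3, whose source name is adult and not developing kidney, had 0 peaks at Ret, like replicate 1. Most genes of similar length lacked a peak too, so this absence cannot tell pad from kidney.

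**Figure D5:**
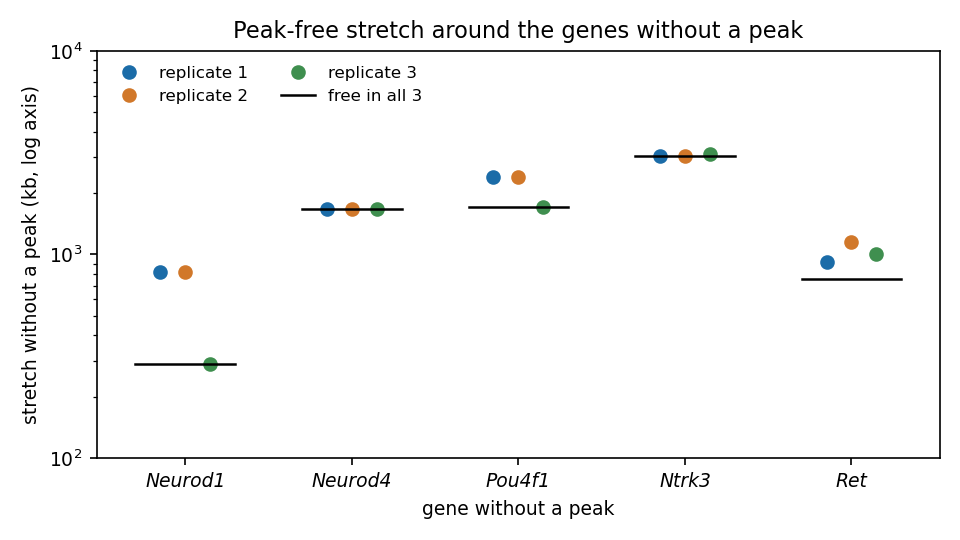
Length of the stretch without any peak (kb, log axis) around each gene with no assigned peak, per replicate (points) and in all 3 replicates together (black lines). The lines stand at 290 kb for Neurod1, 1670 for Neurod4, 1706 for Pou4f1, 3024 for Ntrk3 and 759 for Ret.

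Other genes of the same pathway were set beside the members. Of 9 further receptors and co-receptors for neurotrophins and GDNF ligands, 6, 6 and 5 had a peak at the gene in replicates 1, 2 and 3, against 24.9, 22.6 and 19.6% of all genes, and 5 in all 3 replicates, against 15.5%. These shares do not account for gene length. Sorcs2 and Gfra1 are over 200 kb, where 54.2% of genes had a peak in all 3 replicates. Sort1 is of 50 to 200 kb (29.5%) and Ngfr of 10 to 50 kb (12.2%). With so few genes, nothing is drawn from these counts. Ngfr, which encodes p75NTR, the receptor shared by all neurotrophins, had 1 peak at percentile 99.7, 99.6 and 99.4. Gfra1, the co-receptor through which Ret binds GDNF, had peaks in all replicates, the strongest at percentile 91.4, 90.6 and 89.4. Sorcs2 and Sort1, the sortilin-type partners of p75NTR, had them as well. Gfra2 had a peak in replicates 1 and 2, and Gfra3, Gfra4 and Gfral had none. Of the member receptors, Ntrk2 was like Gfra2 in having a peak at the gene in replicates 1 and 2, and Ntrk3 and Ret were without one.

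Of 12 further transcription factors of sensory or related neurons, 4, 5 and 2 had a peak at the gene in replicates 1, 2 and 3, against the same shares of all genes (24.9, 22.6 and 19.6%). With so few genes, nothing is drawn from these counts. In all 3 replicates 2 of the 12 had one, against 15.5% of all genes. These were Runx1 and Runx3, factors of sensory neuron subtypes that are also active in skeletal and blood cells. Their strongest peaks stood at percentile 92.8, 94.2 and 87.8 and at 98.6, 98.4 and 88.6. These shares do not account for gene length. Runx1 is over 200 kb, where 54.2% of genes had a peak in all 3 replicates, and Runx3 of 50 to 200 kb (29.5%). Atoh1 and Tlx3 are under 10 kb (7.10%). Atoh1 and Tlx3 had a peak in replicates 1 and 2, and Isl1 in replicate 2. Of the 12, 7 had none, among them Pou4f2, Pou4f3, Neurog3, Neurod2 and Neurod6. Without Runx1 and Runx3, no factor of this list or of the 6 among the members had a peak at the gene in all 3 replicates apart from Isl2.

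Replicate 3 decided several of these counts. Without it, 3 of the 9 members, Neurog2, Isl2 and Ntrk2, had a peak at the gene in both remaining replicates (21.0% of all genes), against 1 with it. Of the 6 regions, 5 were found in both, against 3. Such a rise is not particular to the members. Over all regions shared by replicates 1 and 2, 44.2 to 99.2% per GC group were also in replicate 3. The strongest assigned peak per member stood at a mean percentile of 42.5, 56.5 and 11.6 in replicates 1, 2 and 3, or 36.9 ± 23.0 (SD, n = 3), and at 49.5 without replicate 3. These means are over 4 members in replicates 1 and 2 and 3 in replicate 3, where Neurog2 had no peak. Over Neurog1, Isl2 and Ntrk2 alone they were 42.8, 61.7 and 11.6.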

How the data were processed

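H3K4me1 CUT&Tag was performed by the authors on 3 E12 whisker pads. Per the labels, Bowtie2 2.3, SAMtools 0.1.19, bedtools, SEACR 1.3 and mm10 were used. The treatment of duplicate reads is not given in the sources used here. Peaks were called by the authors in each replicate without IgG, in the stringent mode of SEACR, keeping the top 1% of signal blocks. The deposited signal columns hold the summed and the highest fragment pileup of each peak, unscaled. A sequencing depth is stated in the study's methods for all samples alike, but the reads behind each list were not analysed here, so the depth each list reached was not measured. Absence of a peak means that no block ranked high enough within its library to enter the list, and says nothing of weaker mark.

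Genes and 54050 protein-coding start sites on chromosomes 1 to 19 and X were taken from GENCODE M21 and sequences from RefSeq GRCm38.p6, within whose chromosome lengths all peaks on named chromosomes lay. Coordinates are 1-based. Python 3.11.15 and numpy 2.4.6 were used, and the scripts were tested on simulated peaks. The distance of a peak was measured from its nearest edge. Percentiles are mid-ranks by total signal. Regions found in all replicates were ranked by GC content and divided into 10 groups. Other regions with a GC content beyond the limits of these groups were counted in the nearest end group. No test was made, since the design has 1 group of 3 samples, and "±" is the spread between samples. The members and lists were chosen with earlier results of these data known. Named were all members, genes of the receptor and regulator lists, some of which are not reported here, neighbours of printed regions and, for members with a peak at the gene in all replicates, the 2 most similar genes. Of 13 listed regulators, 12 were found by name, and Drgx was not analysed here. Alternatives covered flanks, distances, stricter lists, overlap, the choice of start site, signal measures and leaving out each replicate.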

Additional observations from a re-analysis of the deposited data

How the results depend on the processing

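For the 6 results, 45 values came from other settings, of which 34 stayed within 1.5 times the count or within the replicate spread and 11 moved. In the stronger 50% of each list, Isl2, in replicates 1 and 2, was the 1 member with a peak at the gene. Then 0 members had one in all replicates, 3 regions were assigned, 0 of them in all replicates, and 1 member had a peak at a start site, since fewer peaks entered. In the strongest 10000 peaks of each list, 0 members and 0 regions had a peak in all replicates. The shares of all genes and all regions in these stricter lists were not computed, so nothing is drawn from these counts. With the most 5′ start site alone, 1 member had a peak within 1 kb. Leaving out each replicate gave 1 to 3 members with a peak at the gene in both remaining replicates, 3 to 5 regions in both, 5 to 6 regions in total, 1 to 2 members with a peak at a start site, and a mean percentile of 27.0 to 49.5. The 5 genes without a peak stayed without one with flanks of 20 kb or distances of up to 200 kb. No paired analysis was possible because replicate numbers are shared only with IgG controls, whose lists were not analysed here.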

Other observations

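Genes of neuronal structure and sensory endings were counted in the same way, from a list chosen with earlier results known. Of 20 genes, 6, 7 and 5 had a peak at the gene in replicates 1, 2 and 3, against 24.9, 22.6 and 19.6% of all protein-coding genes. The pan-neuronal genes Tubb3, Elavl3, Elavl4, Snap25 and Syt1 and the neurofilament genes Nefl, Nefm and Nefh had none, and neither did Scn9a, Trpv1, Mrgprd, Calca and P2rx3. From the same list, Stmn2 had a peak in replicates 1 and 2 (percentiles 50.7 and 44.8) and Prph in replicate 2 (percentile 3.01). Syt1, without a peak like Ntrk3, is 513333 bp long. Peaks in all 3 replicates were found at 5 genes, among them Gap43, Tac1, Piezo2 and Trpm8. At Tac1, the gene of substance P, the strongest peak stood at percentile 76.7, 70.9 and 70.5. At Piezo2, the mechanosensory channel, it stood at 34.4, 22.9 and 73.3, and at Gap43, a growth cone protein, at 56.5, 67.1 and 86.0. For Trpm8 the nearest start site of the strongest peak was that of a neighbour, Hjurp, in each replicate.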
